A study of Mus musculus with 4 samples.

Results

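The genes described here are 10 genes of cell-cell adhesion in the lens of Celf1 cKO mice, chosen by name: the cadherins Cdh1 and Cdh2, the catenins Ctnna1, Ctnnb1, Ctnnd1 and Jup, the receptor Epha2 and its ligand family member Efna5, the immunoglobulin adhesion molecule Ncam1, and the tight junction scaffold Tjp1. They are 10 of 28850 genes with a probe, and were found as 18 probes by symbol among 45263 probes on the arrays. Another 4 probes of the same genes carry older symbols (Catnb, Catns and Ncam), so that 22 probes were read in all. Celf1 encodes an RNA-binding protein, and the study asked which transcripts differ in lenses deficient in it.

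The 4 arrays held RNA of lenses at postnatal day 6, with 1 lens on each array. The 2 Celf1 cKO lenses (A and B) carried a lacZ knock-in allele of Celf1, a floxed allele whose exon 5 is removed by Cre, and the Pax6GFPCre transgene, which is active from the lens placode onwards. The 2 Control lenses (A and B) carried the same lacZ knock-in and 1 wild-type copy of Celf1, so the knock-in was present in both groups. All mice were of mixed C57BL/6J and FVB background. In RNA of a whole lens, fewer cells of a type and less RNA per cell cannot be told apart.

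Classical cadherins bind cadherins of neighbouring cells through their extracellular domains. Inside the cell, beta-catenin (Ctnnb1) or plakoglobin (Jup) binds the cadherin tail, alpha-catenin (Ctnna1) links it to actin, and p120-catenin (Ctnnd1) holds the cadherin at the membrane. In the lens, E-cadherin (Cdh1) is the cadherin of the epithelium and N-cadherin (Cdh2) that of the fibers, while EphA2 and ephrin-A5 take part in the ordered packing of the cells.

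Of the 10 genes, 9 had a probe above background on at least 2 arrays and were tested, and Jup did not. Ctnna1 and Ctnnb1 were reduced in Celf1 cKO lenses, and the other 7 tested genes did not pass. Calls required 3 things: an adjusted p below 0.05 (limma, Benjamini-Hochberg over all genes), a log2 difference of more than 0.58 in either direction, and a log2 signal averaging above 4.6. Over all 11516 genes tested, 11.7% were called, with 6.01% elevated and 5.66% reduced (692 and 652 genes). That split turned with the scaling: 5273 and 144 with one median for each array, 5655 and 133 without scaling, and 667 and 2023 with one median over detected probes. All 9 tested adhesion genes had a log2 fold change below 0, with a median of -0.27, beside a median of 0.01 over all genes. In 6 of the 9 the groups did not overlap, where 62.3% of all genes tested showed no overlap.

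**Figure D1:**
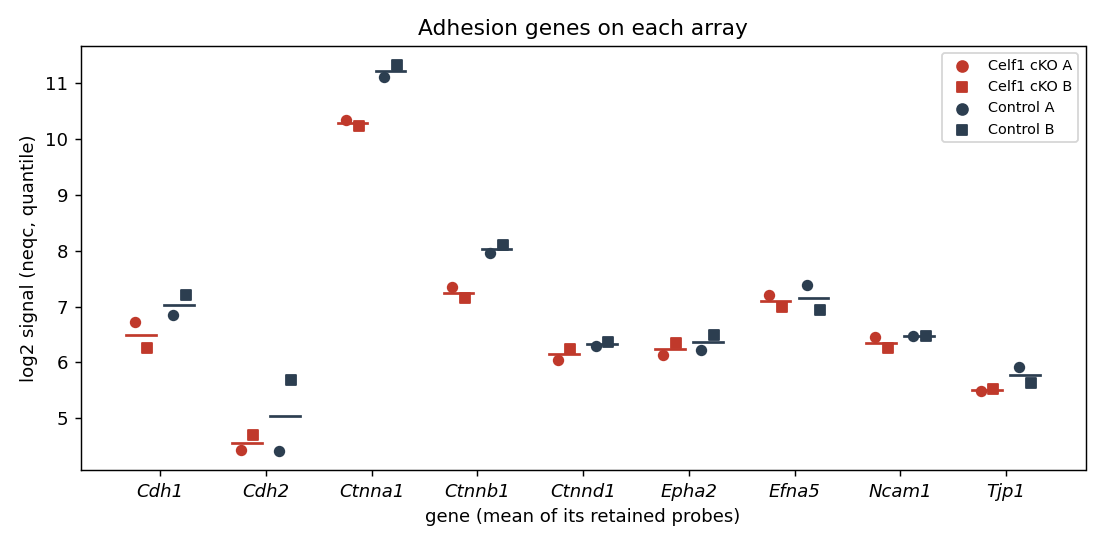
Log2 signal (y axis) of the 9 tested adhesion genes (x axis) on each array; red marks Celf1 cKO, dark blue Control, circles lens A, squares lens B, and short lines the group means of 2 arrays. Ctnna1 and Ctnnb1 were lower on both cKO arrays, by 0.92 and 0.78 on average, and Cdh2 was near 4.4 on 2 arrays of different groups.

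The sign of the smaller differences depends on how the arrays were scaled. The cKO arrays were brighter, with 16261 and 16925 probes detected against 14542 and 14180 on the Control arrays. Where each array was given the same median over all probes, the median gene rose by 0.53, and 6 of the 9 adhesion genes had a log2 fold change above 0. Without any scaling the median gene rose by 0.57, and again 6 of the 9 lay above 0. Cdh2, Ctnna1 and Ctnnb1 were below 0 under both, but none was called: Ctnna1 gave -0.14 and -0.10 (adjusted p = 0.578 and 0.704, limma), and Ctnnb1 -0.08 and -0.04 (adjusted p = 0.764 and 0.882, limma). Both settings differ only by a constant for each array, so values set against the median gene are the same by construction. They were -0.75 for Cdh2, -0.67 for Ctnna1, -0.61 for Ctnnb1, -0.35 for Cdh1 and -0.26 for Tjp1. Ctnnd1, Ncam1, Efna5 and Epha2 lay between -0.05 and 0.01.

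**Figure D2:**
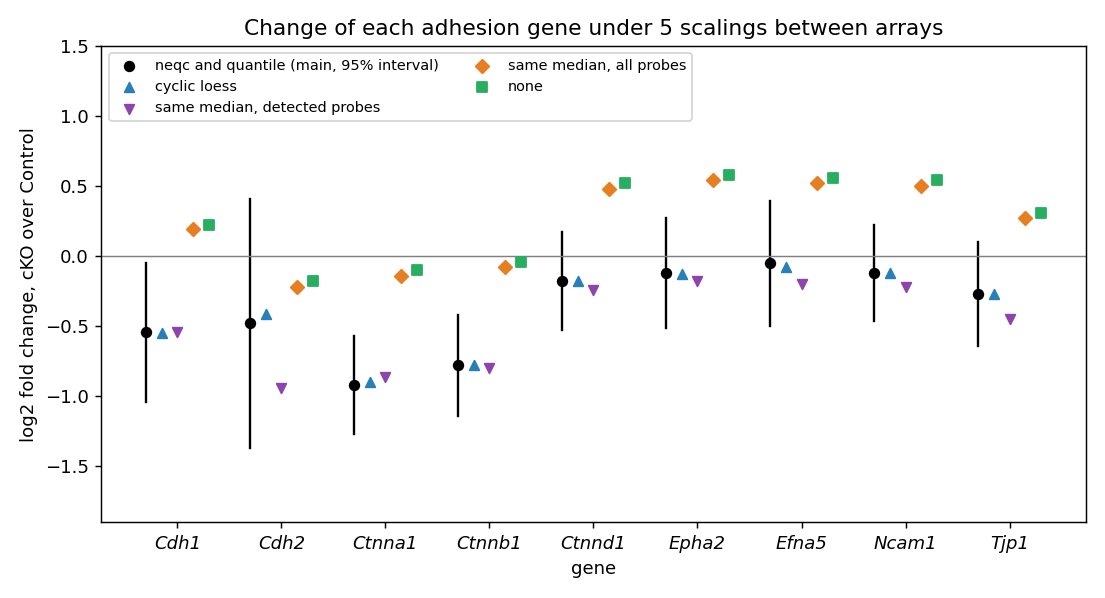
Log2 fold change, Celf1 cKO over Control (y axis), of each tested gene (x axis) under 5 ways of scaling the arrays, with the 95% interval of the main fit. Ctnna1 ranged from -0.92 in the main fit to -0.10 without scaling, and Epha2 from -0.18 with one median over detected probes to 0.58 without scaling.

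Cdh1, the epithelial cadherin, was detected on all 4 arrays through 1 of its 2 probes, which lies at chr8:109194060-109194109 by the positions in the files. The files name no genome build for their positions. Its log2 signal was 6.72 and 6.26 in the cKO lenses and 6.85 and 7.21 in the Control lenses. Both cKO values lay below both Control values, with cKO B lowest. The log2 fold change was -0.54 ± 0.21 (SE, n = 2 per group) and did not pass the test (limma, adjusted p = 0.13). With 1 lens left out it ranged from -0.76 without cKO A to -0.31 without cKO B. Where each array was given one median over all probes, Cdh1 gave 0.19, which is -0.35 against the median gene.

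Cdh2, the fiber cadherin, was close to background. Of its 2 probes, 1 was detected on no array and the other on 2 arrays, cKO B and Control B. The log2 signal of the retained probe was 4.43 and 4.71 in the cKO lenses and 4.42 and 5.68 in the Control lenses, so the groups overlapped. The log2 fold change was -0.48 ± 0.38 (SE), with an adjusted p of 0.422 (limma). It rested on Control B, the array with the highest value: without Control A, the gene gave -1.16. On Control B the retained probe had 15 beads, against 27 to 35 on the other arrays, and the largest bead standard error (4.38).

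The contrast between both cadherins gave overlapping groups. The Cdh2 probe was not above background on cKO A or Control A, so the difference on those arrays is only a bound. On each array, log2 Cdh1 minus log2 Cdh2 was 2.29 and 1.55 in the cKO lenses and 2.43 and 1.53 in the Control lenses. The mean of this difference was 0.06 lower in cKO, with an exact permutation p of 1 (two-sided), where 2 arrays against 2 allow no p below 0.333. Without Control A it was 0.43. It was 0.40 without scaling, so that its sign is not settled. One median for each array, over all or over detected probes, gives the same value by construction, since a constant for each array cancels. A second locus on the array, LOC100044363, is described in the files as similar to N-cadherin, and 1 of its 3 probes shares 49 bases with the undetected Cdh2 probe. Its 2 retained probes gave a mean log2 signal of 5.71 and 5.87 in cKO against 5.89 and 5.54 in Control, and cKO exceeded Control by 0.07 ± 0.17 on the log2 scale (SE; limma adjusted p = 0.797).

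Among the catenins, Ctnna1 had the lowest adjusted p. Alpha-catenin couples the cadherin complex to actin filaments. The log2 signal of its single probe was 10.34 and 10.22 in cKO and 11.10 and 11.31 in Control. The groups were apart by more than the spread within either of them. The log2 fold change was -0.92 ± 0.15 (SE), a fold of 0.528, with an adjusted p of 0.0161 (limma). The unnormalized intensity differed far less, at 1629.2 and 1630.3 in cKO and 1844.3 and 1651.5 in Control. In 13 alternatives that kept all 4 arrays and moved its value or adjusted p, Ctnna1 was below 0 each time and was called in 9. With 1 lens left out in turn it was called only without Control A, and the adjusted p ranged from 0.0304 to 0.104 (limma).

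Ctnnb1, the catenin that also carries Wnt signals to the nucleus, was the other gene reduced. Its log2 signal over 4 probes was 7.35 and 7.15 in cKO and 7.95 and 8.10 in Control. The log2 fold change was -0.78 ± 0.15 (SE), a fold of 0.583, with an adjusted p of 0.0247 (limma). In 16 such alternatives it was below 0 each time and was called in 9. With 1 lens left out it was called only without Control A, and the adjusted p ranged from 0.041 to 0.173 (limma).

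The 4 Ctnnb1 probes all lay lower in cKO but by unequal amounts. Probe ILMN_2994460 differed by -0.35, ILMN_2696575 by -0.60, the Catnb probe ILMN_1255869 by -0.62 and ILMN_2616556 by -1.56. None was called alone, with adjusted p of 0.192, 0.0861, 0.111 and 0.0507 (limma, over all probes). Of the 18 probes found by symbol, 13 were retained and 1, that of Ctnna1, was called, beside 11.3% of all retained probes. The most reduced Ctnnb1 probe read 6.12 and 5.16 in cKO against 6.65 and 7.74 in Control, the widest spread of the 4.

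That probe and ILMN_2994460 are reverse complements of each other over 39 of their 50 bases, although the files place both on one strand, at chr9:120869506-120869555 and chr9:120869468-120869517. By the listed start of ILMN_2994460 the stretch ends at transcript position 3429, which is also the listed start of ILMN_2616556. A probe read forward from there could not hold the stretch, so its listed strand is in doubt. A stretch of 30 of those bases is shown for each, because the labelled RNA of a transcript is complementary to only 1 of both strands. Capitals mark the complementary bases.
ILMN_2994460: GGTAAATCAGTAAGAGGTGTTATTTGAGCC
ILMN_2616556: GGCTCAAATAACACCTCTTACTGATTTACC
Which of both pairs with the mRNA was not tested. On each array the first minus the second was 3.66 and 4.81 in cKO and 3.51 and 2.55 in Control, a mean difference of 1.21 (exact permutation p = 0.333, the smallest possible). Without ILMN_2616556, Ctnnb1 gave -0.52 with an adjusted p of 0.0582 (limma) and was not called, while without ILMN_2994460 it gave -0.92 (adjusted p = 0.021, limma) and was called.

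**Figure D3:**
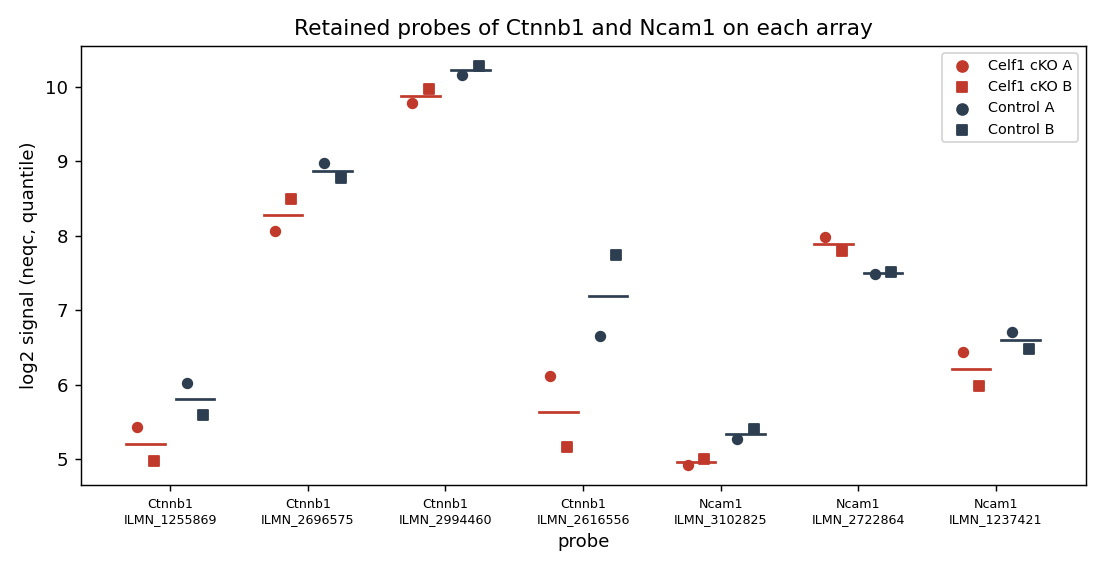
Log2 signal (y axis) of each retained probe of Ctnnb1 and Ncam1 (x axis) on each array, with symbols and colours for lens and group and short lines for group means. The 4 Ctnnb1 probes were all lower in cKO, by 0.35 to 1.56, while ILMN_2722864 of Ncam1 was the only one of the 7 that was higher.

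Ctnnd1 and Jup were the weakly measured catenins. For Ctnnd1, 3 of 4 probes were detected on no array, and the retained one carries the older symbol Catns. Its log2 signal was 6.04 and 6.25 in cKO and 6.29 and 6.36 in Control, and its log2 fold change was -0.18 ± 0.15 (SE; limma adjusted p = 0.444). Jup, plakoglobin, had 1 probe, with unnormalized intensities of 40.3 and 41.6 in cKO and 49.6 and 37.4 in Control. It was not above background on any array, and no change can be given.

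No difference was detected for the Eph receptor or the ephrin. Epha2 read 6.13 and 6.35 in cKO and 6.23 and 6.49 in Control, which overlap. Its log2 fold change was -0.12 with a 95% interval from -0.51 to 0.27 (adjusted p = 0.643, limma). Efna5, the ephrin ligand, read 7.21 and 7 in cKO and 7.38 and 6.94 in Control, which also overlap. Its log2 fold change was -0.06 with an interval from -0.50 to 0.39 (adjusted p = 0.866, limma). Its 2 probes gave -0.05 and -0.06. Without scaling, Epha2 was called at 0.58, which is 0.01 against the median gene.

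Ncam1 differed little as a gene, but its probes did not move together. The gene read 6.45 and 6.26 in cKO and 6.48 and 6.47 in Control, and its log2 fold change was -0.12 ± 0.14 (SE; limma adjusted p = 0.599). Probes ILMN_3102825 and ILMN_1237421 differed by -0.37 and -0.38. Probe ILMN_2722864, designed on another transcript record, differed by 0.39, and none of the 3 passed (adjusted p of 0.155, 0.243 and 0.148, limma).

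The first 30 bases of the 3 Ncam1 probes are shown because they read different places of the gene, at chr9:49331688-49331737, chr9:49325607-49325656 and chr9:49313198-49313247 in this order.
ILMN_3102825: acccaagctggaagggcagatgggagagga
ILMN_2722864: ccttggtctcattgcttttctctgcggtga
ILMN_1237421: ggacactccgttccctgaaaccatttaaaa
On each array, log2 ILMN_2722864 minus log2 ILMN_1237421 was 1.54 and 1.82 in cKO and 0.77 and 1.05 in Control. Both cKO values lay above both Control values, a mean difference of 0.77 (exact permutation p = 0.333, the smallest possible). This ratio within an array shows unequal signal of the probes and does not say which of them changed.

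Tjp1, the scaffold ZO-1 of tight junctions, read 5.49 and 5.52 in cKO and 5.92 and 5.64 in Control. The groups did not overlap, but the log2 fold change of -0.27 ± 0.16 (SE) did not pass (adjusted p = 0.275, limma). Under scaling to one median over all probes it was 0.27, which is -0.26 against the median gene.

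The genes whose pattern over the 4 arrays lay closest to Cdh1, by Euclidean distance of centred log2 values among all genes tested, were Nupl2 (0.035), Ampd2 (0.044) and Mob2 (0.047). Closest to Cdh2 were Gm4977 (0.15), LOC100040413 (0.21) and Paics (0.22), though Cdh2 was not above background on cKO A or Control A. With 4 arrays this is a description of the pattern.

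Over 10 lists of other adhesion genes, 7 of 67 tested genes were called (10.4%, beside 11.7% of all genes), 5 as elevated and 2 as reduced. Among the elevated genes, Dsp and Apc were above background in cKO alone and passed the detection filter through that group. Of 11 other catenins and actin linkers, 10 were tested, with a median log2 fold change of -0.18. Vcl, which encodes the actin linker vinculin, was elevated, at 6.41 and 6.59 in cKO against 5.88 and 5.66 in Control (0.73 ± 0.15 SE, adjusted p = 0.0314, limma). Afdn, which encodes afadin, the partner of nectins, was elevated by 0.85 ± 0.22 (adjusted p = 0.0484, limma). Arvcf, a relative of p120-catenin, was reduced, at 5.99 and 6.03 against 6.56 and 6.83 (-0.68 ± 0.15, adjusted p = 0.0357, limma). Under scaling to one median over all probes Arvcf gave 0 and was not called, and against the median gene Arvcf, Vcl and Afdn gave -0.53, 0.81 and 1.13. With an offset of 50 or no background correction, Vcl (0.45 and 0.52) and Arvcf (-0.45 and -0.51) fell short of the fold threshold. Each of Vcl, Afdn and Arvcf lost its call when either cKO lens or Control B was left out, with adjusted p from 0.0937 to 0.219 (limma).

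Of 12 desmosome genes, 5 were tested with a median of 0. The probe of Dsp, which encodes the desmosomal plaque protein desmoplakin, was detected on the cKO arrays alone. It entered the test through that group, so its call (adjusted p = 0.015, limma) is not independent of the filter, and the change is given as at least 1.76-fold higher. Of 9 cadherin-cleaving proteases and gamma-secretase subunits, 8 were tested with a median of 0.06. Psen2, a presenilin, was elevated by 0.96 ± 0.15 (adjusted p = 0.0148, limma). Aph1a, another subunit of that enzyme, was reduced (log2 fold change -1.25 ± 0.28 SE, adjusted p = 0.0339, limma), and the brighter of its 2 retained probes alone gave -2.26. With one median for each array Aph1a gave -0.58 and without scaling -0.54, and neither was called (adjusted p = 0.063 and 0.0667, limma), with -1.11 against the median gene in both. It was also not called without Control A, Control B or cKO B (adjusted p of 0.0811, 0.126 and 0.113, limma). Psen2 was not called without cKO B or Control B (0.108 and 0.0593) or with an offset of 50 (log2 fold change 0.57), nor Dsp without Control B (0.0735).

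Of 13 genes of Wnt and beta-catenin signalling, 9 were tested with a median of -0.17. The only one called was Apc, which marks beta-catenin for degradation (adjusted p = 0.021, limma). Its probe too was detected on, and entered the test through, the cKO arrays alone, which gives at least 1.49-fold higher. Apc was not called without Control B (adjusted p = 0.078, limma) or with one median over detected probes (0.31, adjusted p = 0.151, limma), and with an offset of 50 (0.36) or no background correction (0.45) it fell short of the fold threshold. In the normalized table as deposited, floored at 1, none of the 7 called genes passed, and with 16 added to that table all but Afdn (adjusted p = 0.0543, limma) did. Axin2 and Nkd1, known targets of the pathway, gave -0.30 and -0.28 and did not pass.

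No gene was called in the other lists. They held 5 tested of 21 other cadherins (median -0.25), 11 of 20 Eph receptors and ephrins (-0.05), 3 of 5 nectins (-0.01), 4 of 12 immunoglobulin adhesion molecules (0.17), 9 of 18 tight junction genes (0.17) and 3 of 5 cadherin repressors (-0.10).

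**Figure D4:**
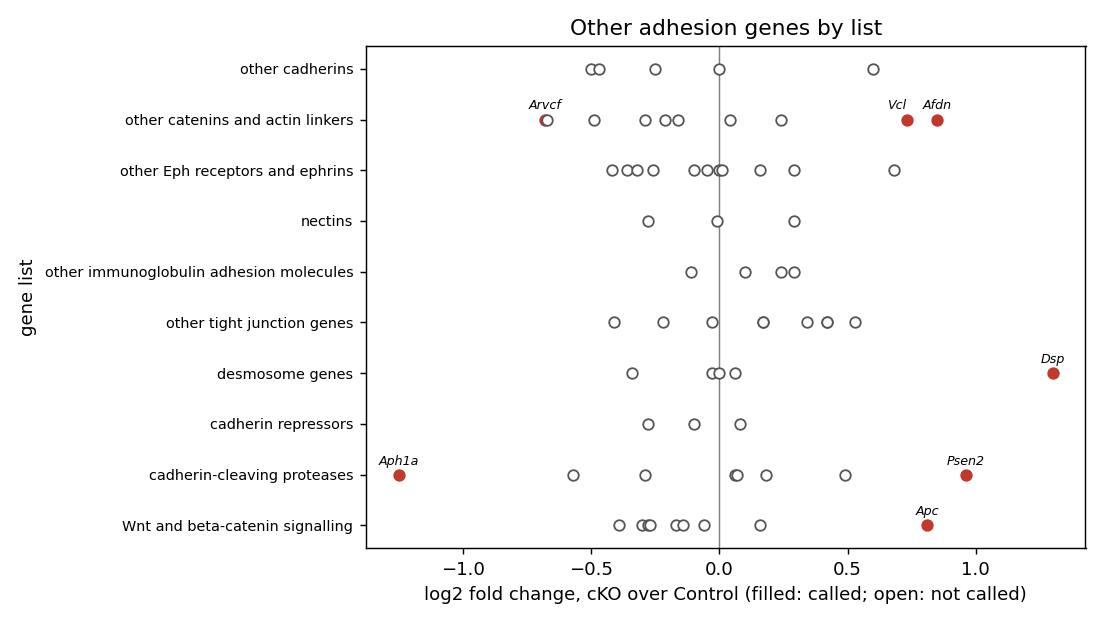
Log2 fold change, Celf1 cKO over Control (x axis), of each tested gene of 10 further adhesion lists (y axis); filled points passed the test and are named, open points did not. Of the 7 named genes, 5 were elevated and Arvcf and Aph1a were reduced; Dsp and Apc were not above background in Control, so their plotted values are no bound.

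Several measured facts move with the groups beside these genes. Celf1 itself was reduced, at 7.51 and 7.01 in cKO against 8.78 and 8.62 in Control (log2 fold change -1.44 ± 0.20 SE, adjusted p = 0.0107, limma). It gave -0.60 without scaling, and was not called without Control B (adjusted p = 0.0593, limma), in the deposited table floored at 1 (0.0763) or without the detection filter (0.0732). Xist was detected by all of its 4 probes in both cKO lenses and by none in Control, so that genotype and Xist cannot be told apart here. Of the Y-linked genes, Ddx3y was reduced, at 6.86 and 4.83 in cKO against 9.06 and 8.88 in Control (-3.12, adjusted p = 0.021, limma). Uty was near background, at 4.67 and 4.89 in cKO against 4.47 and 4.52 in Control. It was detected on the cKO arrays alone, through 1 of its 4 probes, and did not pass (adjusted p = 0.226, limma). No probe of Eif2s3y or Kdm5d was retained. Genotype therefore varies together with sex-linked transcripts, and the sex of the lenses was not tested. The lens was present by its fiber markers, with Crybb1 at 15.05 to 15.23. Of the 10 tested, 9 were below 0, with a median of -0.25, and Lctl (-1.64, adjusted p = 0.00304, limma) and Bfsp2 (-0.74, adjusted p = 0.0254, limma) were called as reduced. With one median for each array Lctl was still called (-0.84), though not in the deposited table floored at 1 (adjusted p = 0.0573, limma). Bfsp2 was not called with one median for each array (-0.19) or when either cKO lens or Control B was left out (-0.83 to -0.66). Of the 5 epithelial markers tested, 4 were below 0 and Mki67 was above it (0.31), with a median of -0.55 for the list. Only Foxe3 was called, as reduced (log2 fold change -0.82, adjusted p = 0.0176, limma). Foxe3 was not called with one median for each array (-0.30) or without scaling (-0.26), nor when either cKO lens or Control B was left out (-0.90 to -0.74). With an offset of 50 (-0.42) or no background correction (-0.51) it fell short of the fold threshold. The summed signal of 6 vessel markers was 398 to 427 in cKO against 319 to 350 in Control, but 3 were above 0 (Emcn 1.15, Esam 0.73, Cdh5 0.60) and 3 below (Kdr -0.61, Tek -0.27, Pecam1 -0.06). Of these only Emcn was called (adjusted p = 0.0184, limma), and not when either cKO lens or Control B was left out (0.0582 to 0.104). Of 7 macrophage markers, Cd68 and C1qb were detected on the cKO arrays alone, Csf1r on all 4 arrays gave -0.11, and the other 4 were not retained. Of 3 blood markers tested, Slc4a1 was called as reduced (-1.05, adjusted p = 0.0118, limma), though not with one median for each array, without scaling, without cKO B or without Control B, and Hbb-b1 and Hba-a1 gave 0.05 and -0.08. The pigment cell marker Pmel gave -0.41 and did not pass (adjusted p = 0.252, limma). No retina, muscle, mesenchyme or surface epithelium marker was retained. The part of these in the adhesion genes was not tested.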

How the data were processed

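The authors deposited unnormalized signal intensity and normalized intensity of Illumina MouseWG-6 v2 arrays, with detection p-values. Within an array, the normalized values are the unnormalized ones multiplied and shifted by constants. The unnormalized intensity was used, for 45263 of 45281 probes (18 lines had shifted cells, none of a gene described here). Probes were named through RefSeq (GRCm38.p6) where they matched, and 8344 kept the name in the file.

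Background was corrected with neqc (limma 3.58.1, R 4.3.3, offset 16, negative controls inferred from detection p-values), followed by quantile normalization and log2. Probes with a detection p-value under 0.05 on at least 2 of the 4 arrays were retained (16262), and a gene's retained probes were averaged. Groups were compared with lmFit and eBayes, two-sided, Benjamini-Hochberg over all genes, or over all retained probes. The study's methods name edgeR, a model for counts, which was not applied to intensities. A change from a group not above background is a bound against the lowest detected signal. The fit was tested on simulated data. The members, lists and named genes (all members, the called genes of each list, and the 3 closest patterns to Cdh1 and Cdh2) were chosen with earlier results of these data known. Other genes were named after their values were seen: the marker genes, Celf1, Xist, Ddx3y, Uty, Eif2s3y, Kdm5d, Axin2, Nkd1 and LOC100044363. The study's methods describe 1 lens per biological replicate. Whether the lenses of a group came from separate animals is not given in the sources used here, so p-values measure the spread between these samples. Tables were read with Python 3.11.15. The number of arrays limits the precision.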

Additional observations from a re-analysis of the deposited data

How the results depend on the processing

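All values are log2 fold changes or counts, and alternatives chosen after seeing the data are named as such. The main fit called 1344 genes, 2 adhesion genes and 1 of the 18 probes. The deposited normalized table (values under 1 set to 1) called 7 genes, 0 adhesion genes and 0 probes, and Cdh1 minus Cdh2 was 0.19. With 16 added to that table, chosen after seeing the data, 1190 genes, 2 adhesion genes and 1 probe were called, and Cdh1 minus Cdh2 was -0.03. Normexp with an offset of 50 called 753 genes and 1 adhesion gene. The same median for each array called 5417 genes, 0 adhesion genes and 3 probes, and Cdh1 minus Cdh2 was 0.40. No scaling called 5788 genes, 1 adhesion gene and 4 probes. No detection filter called 155 genes, 0 adhesion genes and 0 probes. No background correction, cyclic loess, detection on all 4 arrays and eBayes with trend and robust each gave 2 probes, and the brightest probe gave 1 adhesion gene. The same median over detected probes, chosen after seeing the data, called 2690 genes and 4 probes, with by construction the same Cdh1 minus Cdh2 of 0.40. Also chosen after, leaving out Ctnnb1 probe ILMN_2616556 gave 1 adhesion gene, and leaving out its partner ILMN_2994460 gave 2. Leaving out 1 lens in turn gave 113 to 1315 genes, 0 to 3 adhesion genes, 0 to 2 probes and a Cdh1 minus Cdh2 of -0.53 to 0.43.

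With the same median over all probes, which moved the median gene to 0.53, the sign turned for Cdh1 (0.19), Ctnnd1 (0.48), Epha2 (0.54), Efna5 (0.52), Ncam1 (0.50) and Tjp1 (0.27). Without scaling, with the median gene at 0.57, it turned for Cdh1 (0.22), Ctnnd1 (0.52), Epha2 (0.58), Efna5 (0.56), Ncam1 (0.54) and Tjp1 (0.31), and Cdh1 minus Cdh2 was 0.40. These settings differ only by a constant for each array, so values against the median gene and Cdh1 minus Cdh2 are equal by construction. Against the median gene they gave Cdh1 -0.35, Ctnnd1 -0.05, Epha2 0.01, Efna5 -0.01, Ncam1 -0.03 and Tjp1 -0.26. The brightest probe gave Ncam1 0.39. Leaving out 1 lens gave Efna5 -0.29 to 0.17 and Epha2 -0.26 to 0.01. It gave Tjp1 -0.43 to -0.13, Ctnnd1 -0.28 to -0.07 and Ncam1 -0.21 to -0.01. The cause was not tested. A minus B in cKO did not correlate across genes with A minus B in Control (-0.01), which cannot exclude that the letters pair the lenses. With the letter as a replicate block 1757 genes, 2 adhesion genes and 3 probes were called. A slide block was not run because the files name no slide.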

Other observations

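Opposite-strand probe pairs such as that of Ctnnb1 were counted over the whole array, after the Ctnnb1 pair had been seen. There were 100 pairs of probes of one gene, in 70 genes, that are reverse complements over at least 30 bases, and in 32 of them both probes were retained. The log2 differences of both probes had opposite signs in 10 of the 32, and the median gap between them was 0.43. The gap of the Ctnnb1 pair was 1.21, and 3 of the 32 pairs, that pair included, had a gap at least as large.

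Against LOC100044363 in place of Cdh2, log2 Cdh1 minus the log2 signal of that locus was 1.01 and 0.39 in cKO and 0.95 and 1.67 in Control, a mean difference of -0.62 (exact permutation p = 0.667, two-sided, smallest possible 0.333).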
